A study of Mus musculus with 4 samples.

Results

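The germ cell RNA-binding proteins described here are 9 genes: Dazl, Boll, Nanos1, Nanos3, Dnd1, Ybx2, Pum2, Lin28a and Lin28b. They were taken as all non-control probes whose gene name in the scanner files is one of these names. The rule found 19 probes, each spotted once per array, for 9 of 9 genes, out of 56605 probes and 24813 named reference genes on the array. RNA of 2 mouse lines was hybridised to 4 one-colour Agilent arrays, 2 for GC-1 and 2 for GC-2. As background, both are transformed lines: SV40 large T antigen immortalized the type B spermatogonia behind GC-1, while the spermatocytes behind GC-2 received it together with a temperature-sensitive p53. Both grew untreated in serum-supplemented high-glucose DMEM and were collected shortly before they were confluent. Separate cultures are not stated for the 2 replicates of a line, and a p-value here reflects only how far those samples vary, possibly for technical reasons. The 4 arrays shared 1 slide on which each line took its own row, so position and line cannot be told apart.

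Germ cells store many messenger RNAs and translate them late, and the proteins studied here bind such messages and set when they are read or destroyed. DAZL and BOLL are sister proteins that bind the 3′ ends of messages and recruit the poly(A)-binding protein, DAZL from the early germ line onwards and BOLL at meiosis. NANOS proteins act with Pumilio proteins such as PUM2 to bring the CCR4-NOT deadenylase to a message, and DND1 is a partner of NANOS that primordial germ cells need in order to survive. YBX2, also called MSY2, packages stored messages in meiotic and haploid male germ cells. LIN28A and LIN28B block the maturation of the let-7 microRNAs and mark undifferentiated germ cells and stem cells.

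The labels call both lines germ cell lines. Of 14 germ cell marker genes, 7 were well above background on both arrays of GC-1 and 3 on both arrays of GC-2, namely Zbtb16, Sohlh2 and Gfra1. Piwil1, Tex101, Mael and Kit were above it on none of the 4 arrays. Of 11 Sertoli cell markers 9 and 8 were measured in GC-1 and GC-2, and of 5 peritubular myoid markers 5 and 4. Of 7 Leydig cell markers with a probe 4 and 3 were measured. For macrophages and for endothelial cells it was 3 and 3 of 5 markers each. Of all probes, 57.5% to 64.9% were well above background on an array. The part of such other cell types in the values below was not tested.

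Several members have more than 1 probe, and the probes of a gene did not behave alike. An oligo-dT primer starts labelling at the poly(A) tail, so it matters where in a message a probe lies. The motif AATAAA, which directs cleavage and polyadenylation, was searched in all probes on the sense strand and, as TTTATT, on the other strand. It was present in 9.77% of all probes on the sense strand and in 3.85% in the reverse sense, and in 4 of the 19 member probes on the sense strand. The windows below show it in capitals (at most 30 bases each, read 5′ to 3′ from the scanner files), because the first 3 belong to the most 3′ probe of their gene. The Lin28b probe does not: it lies 80196 bases upstream of that gene's most 3′ probe, which has no match. Distances between probes, here and below, are counted on the genome, introns included, and not along a message.
Lin28a A_55_P2074371: cttccctgggaaAATAAAgacttattggta
Nanos3 A_55_P2169804: gcctcaacatccAATAAAtgctaaggagtg
Pum2 A_52_P222685: ctgacaatacagAATAAAgac
Lin28b A_52_P321857: gtattttgtctcAATAAAacattatagatt

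Of these 4 probes, 3 were well above background on all 4 arrays and the Lin28b probe on none. Of the 15 member probes without the motif, 5 were above background on all 4 arrays and 8 on none. Among all probes, those with AATAAA were measured on both GC-1 arrays in 68.1% and on both GC-2 arrays in 61.6% of cases, against 61.1% and 56.1% of those without it. A match is a description of the probe and not a mapped cleavage site.

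5 other probes are printed whole, in lower case, because they separate the Pum2 results or stand for the genes that were not detected. None has a motif marked.
Pum2 A_55_P2613846: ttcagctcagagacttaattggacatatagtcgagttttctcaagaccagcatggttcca
Pum2 A_55_P2613836: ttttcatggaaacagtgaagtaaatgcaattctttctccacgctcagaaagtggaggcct
Boll A_51_P239214: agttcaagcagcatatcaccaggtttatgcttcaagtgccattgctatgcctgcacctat
Boll A_52_P340894: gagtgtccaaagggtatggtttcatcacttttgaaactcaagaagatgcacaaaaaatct
Dazl A_51_P246060: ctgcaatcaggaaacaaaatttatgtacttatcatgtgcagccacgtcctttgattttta

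Each of these 5 probes has at least 1 reading frame without a stop codon over its 60 bases. The positions in the scanner files (mm9) put Boll A_52_P340894 at chr1:55405733-55412504 (minus strand), a span of 6772 bases for 60 bases of probe. Dazl A_51_P246060 lies at chr17:50426957-50427103 (minus strand), a span of 147 bases. Both therefore join separate stretches of the genome, as a spliced message does. The exon and untranslated region of each probe are not given in the files and were not used here.

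Levels are given as processed signals, which are background-subtracted Cy3 intensities, and differences as log2 signal after subtracting each array's 75th percentile. The percentile stood at signals of 666 and 693 in GC-1 and 416 and 199.9 in GC-2. A probe was called measured in a line when both of its arrays had it well above background, and it was tested with limma when it was measured in at least 1 line. By that rule 10 of the 19 probes and 7 of the 9 genes were tested, GC-1 had 9 measured probes and GC-2 also 9, while 9 were above background on no array. The lowest signals that carried this flag were 9.11 and 11.45 in GC-1 and 8.67 and 7.72 in GC-2. They are no cutoff, since some brighter spots did not carry it. On the normalized scale these lowest values were higher in GC-2 (-5.58 and -4.69, against -6.19 and -5.92), and a dim message of equal level could be missed in GC-2 alone.

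**Figure D1:**
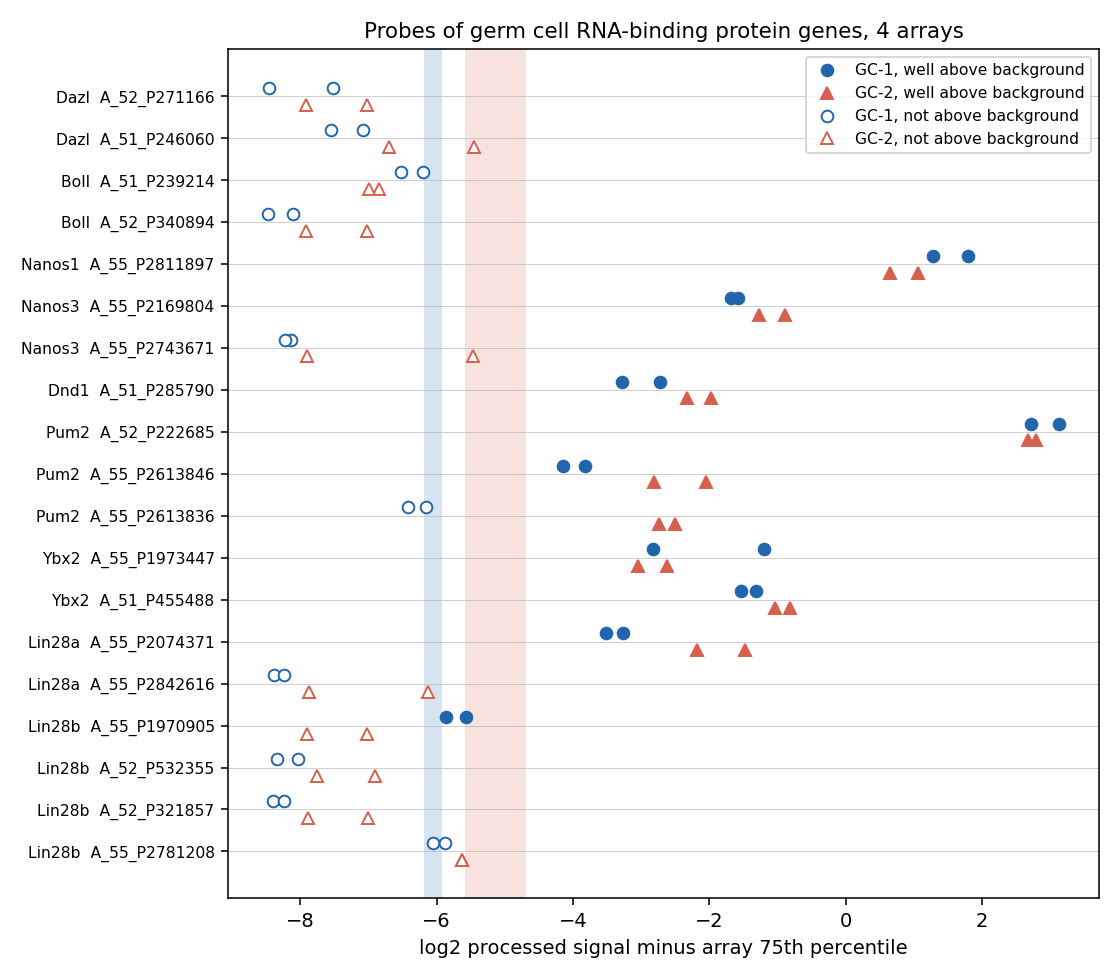
Normalized log2 signal (x axis, processed signal minus the array's 75th percentile) of the 19 member probes on 2 GC-1 arrays (circles) and 2 GC-2 arrays (triangles). Filled symbols are well above background and open ones are not, and the shaded bands span the lowest log2 values well above background on the arrays of each line. The Dazl and Boll probes are open on all 4 arrays, and Pum2 A_55_P2613836 is open in GC-1 and filled in GC-2.

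Dazl and Boll, the DAZ family, were not detected in either line. Dazl A_51_P246060 gave signals of 4.91 and 3.68 in GC-1 and of 4.02 and 4.56 in GC-2. Dazl A_52_P271166, at chr17:50418923-50418982, gave 1.89 and 3.79 in GC-1 and 1.72 and 1.54 in GC-2. All 8 values lay below the lowest signal well above background of their array. At the first probe the signals of the lines overlapped. Its normalized values, none well above background, were -7.08 and -7.56 in GC-1 and -6.69 and -5.455 in GC-2, without overlap. A weaker flag, for a signal that is positive and significant against background, was set for A_51_P246060 on all 4 arrays and for A_52_P271166 on 1 GC-1 array. No Dazl signal exceeded the brightest negative control spot of its array, which was 7.09 and 15.0 in GC-1 and 6.27 and 5.13 in GC-2.

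Boll A_51_P239214, at chr1:55356953-55357012, gave 9.10 and 7.50 in GC-1 and 3.63 and 1.57 in GC-2. The GC-1 values were the higher ones, but the first lay just under the lowest flagged signal of 9.11 and above the brightest negative control, and the second below both. The weaker flag was set for this probe on 2 GC-1 arrays and 1 GC-2 array. The junction probe A_52_P340894 gave 1.87 and 2.50 in GC-1 and 1.73 and 1.54 in GC-2, where neither flag was set. Neither Dazl nor Boll was tested, and their levels in both lines are known only to be below the limit of detection.

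Among the NANOS genes, Nanos1 and Nanos3 were measured in both lines and neither passed the test. Nanos1 gave signals of 2309.95 and 1683 in GC-1 and of 652 and 419 in GC-2, at chr19:60835204-60835263. After normalization the values were 1.79 and 1.28 in GC-1 and 0.65 and 1.07 in GC-2, with both GC-1 arrays above both GC-2 arrays. The difference was -0.68 ± 0.30 log2 (SE, n = 2 arrays per line, limma, adjusted p = 0.118). It passed with arrays centred on their medians (-0.996, adjusted p = 0.0374) and scaled to spike-in probes (-2.75, adjusted p = 1.75e-05). It did not pass with normexp background correction (-0.72, limma, adjusted p = 0.0892) or quantile normalization (-0.57, adjusted p = 0.164). Nor did it with the percentile taken over the detected probes (-0.48, adjusted p = 0.236).

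Nanos3 was measured by its 3′ probe, A_55_P2169804 at chr8:86697632-86697691, and not by the other. The 3′ probe gave 223 and 217 in GC-1 and 173 and 108 in GC-2, which became -1.58 and -1.68 against -1.27 and -0.89 on the normalized scale. The signals were thus higher in GC-1 and the normalized values higher in GC-2, without overlap in either. The difference of 0.55 ± 0.25 log2 (limma, adjusted p = 0.131) did not pass. A_55_P2743671, which lies 2367 bases upstream, gave 2.36 and 2.31 in GC-1 and 1.74 and 4.52 in GC-2, and was well above background on no array.

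Nanos2, the NANOS gene that keeps male germ cells out of meiosis and spermatogonia undifferentiated, is no member. It gave 4.14 and 2.30 in GC-1 and 1.74 and 2.44 in GC-2, and was not well above background on any of the 4 arrays.

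Dnd1 was measured in both lines by its single probe. Its signals were 100.7 and 71.5 in GC-1 and 106 and 39.8 in GC-2. The signals overlapped, while the normalized values of -2.72 and -3.28 in GC-1 lay below those of -1.97 and -2.33 in GC-2. The difference was 0.85 ± 0.30 log2 and missed the threshold (limma, adjusted p = 0.0655). Its 95% interval ran from 0.10 to 1.60 before adjustment. It passed with normexp background correction (0.94, adjusted p = 0.0364), with the percentile taken over the detected probes (1.05, adjusted p = 0.0314) and with only probes detected on all 4 arrays (adjusted p = 0.0465). It did not pass with median centring (0.54, limma, adjusted p = 0.246), with quantile normalization (0.59, adjusted p = 0.191) or without a filter (adjusted p = 0.139).

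The 3 probes of Pum2 differed: after normalization both upstream probes were higher in GC-2, and the most 3′ probe did not pass the test. This end probe, A_52_P222685 at chr12:8759096-8759155 (plus strand), gave 4385 and 6098 in GC-1 and 2881 and 1280.1 in GC-2. Normalized, these were 2.72 and 3.14 in GC-1 and 2.79 and 2.68 in GC-2, so that the lines overlapped. The difference of -0.19 ± 0.26 log2 had a 95% interval from -0.84 to 0.46 (limma, adjusted p = 0.575). Scaled to the spike-in probes it was lower in GC-2 (-2.26, adjusted p = 0.000109).

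The middle probe, A_55_P2613846 at chr12:8750774-8750833, lies 8322 bases upstream. It gave 46.8 and 39.0 in GC-1 and 59.4 and 48.5 in GC-2, with both GC-2 arrays higher before and after normalization. It rose by 1.56 ± 0.34 log2 in GC-2 (limma, adjusted p = 0.0145). The call was lost without GC-1 replicate 1, GC-1 replicate 2 or GC-2 replicate 2 (adjusted p = 0.0593, 0.0835 and 0.0518).

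The far upstream probe, A_55_P2613836 at chr12:8716177-8716236, lies 42919 bases from the end probe on the genome. Each Pum2 probe is annotated to a different transcript of the gene, so the probes need not lie on 1 message. It gave 9.33 and 8.11 in GC-1, not well above background, and 62.4 and 35.3 in GC-2, above it on both arrays. Pum2 message at this probe was higher in GC-2 by at least 10.7-fold, from normalized means in which the dimmer line is set at the lowest signal well above background or its own if higher. It entered the test only through GC-2, so the measured difference of 3.67 ± 0.25 log2 (limma, adjusted p = 0.000435) is set against a line without a measured level. With normexp background correction and its offset the difference was 1.75 (adjusted p = 0.00143), smaller than the stated bound, so the bound holds only for the processed signal.

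Whether 2 probes of a gene differ was tested within arrays, as the log2 ratio of an upstream probe to the gene's most 3′ probe, in 1 limma fit over 12165 such pairs of 7735 genes. This test was added after the data were seen. The ratio is free of any constant added to an array. For the far Pum2 probe the ratio was -8.88 and -9.55 in GC-1 and -5.53 and -5.18 in GC-2, a shift of 3.86 log2, or 2.09 with normexp. Since the probe was not well above background in GC-1, these are given as a description, without a test. For the middle probe it was -6.55 and -7.29 against -5.60 and -4.72, a rise of 1.76 ± 0.44 (limma, adjusted p = 0.03). That call was lost without any array other than GC-2 replicate 1.

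Such shifts were common on these arrays: 43.7% of all pairs were called, 31.8% with the upstream probe relatively higher in GC-2 and 11.9% with it lower. The median shift over all pairs was 0.47 log2, and it was 0.17 for pairs up to 500 bases apart and 0.68 for pairs over 10000 bases apart. A shift at least as large as that of the middle Pum2 probe was seen in 17.9% of pairs over 2000 and up to 10000 bases apart. The part of this general trend in the Pum2 values was not tested. A rule that takes the brightest probe gave Pum2 the value of the end probe (-0.19), and the mean of its 3 probes, the far one included, gave 1.68.

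**Figure D2:**
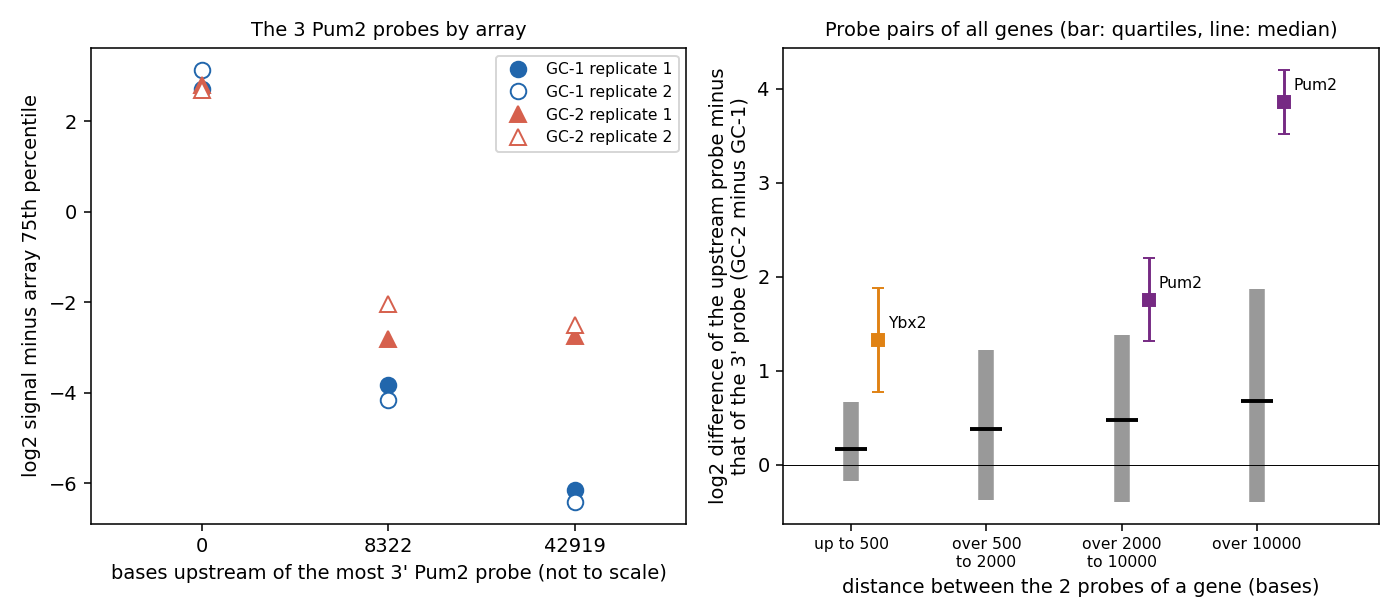
Left, normalized log2 signal (y axis) of the 3 Pum2 probes on 2 GC-1 and 2 GC-2 arrays, ordered by distance upstream of the most 3′ probe (x axis, bases, not to scale). Distances in both panels are genomic, and levels of different probes are not comparable. Right, for probe pairs of all genes by distance, the quartiles (bars) and median (line) of the GC-2 minus GC-1 log2 difference of the upstream probe minus that of the 3′ probe, with Pum2 and Ybx2 as squares with their SE. Filled symbols are replicate 1 and open ones replicate 2. The lines overlap at the end probe and not at the upstream probes, and the far Pum2 pair, drawn at 3.86, rests on a probe not well above background in GC-1.

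Ybx2 was measured in both lines by 2 probes that point in opposite directions, and neither passed the test. A_51_P455488, at chr11:69754994-69755053 (plus strand), gave 267 and 239.6 in GC-1 and 204 and 114 in GC-2. Its normalized values were -1.32 and -1.53 in GC-1 and -1.03 and -0.81 in GC-2, a difference of 0.50 ± 0.24 log2 without overlap (limma, adjusted p = 0.145).

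The other probe, A_55_P1973447 at chr11:69755046-69755105, begins 52 bases further on and shares 8 bases with it, ttttatga. It gave 292 and 97.8 in GC-1 and 67.6 and 24.2 in GC-2. Its GC-1 replicates were -1.19 and -2.83 after normalization, an SD of 1.16 log2, while the SD of the neighbouring probe over the same arrays was 0.15. With -2.62 and -3.05 in GC-2 the lines overlapped, and the difference was -0.83 ± 0.56 log2 (limma, adjusted p = 0.272). Without GC-1 replicate 2 it was -1.65 (adjusted p = 0.0352), and without GC-1 replicate 1 it was -0.0097 (adjusted p = 0.985). The pair test between both probes gave 1.33 ± 0.55 (limma, adjusted p = 0.112), with 2.04 without GC-1 replicate 2 (adjusted p = 0.0366) and 0.62 without GC-1 replicate 1 (adjusted p = 0.299). The mean of both probes was -0.16 log2, so that Ybx2 had no settled direction.

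At their brightest probes Ybx1 and Ybx3, the relatives of YBX2 found in most cells, did not pass either. They stood at -0.28 ± 0.25 and -0.16 ± 0.23 log2 (limma, adjusted p = 0.396 and 0.603). Of 4 tested Ybx1 probes, however, 2 were called lower in GC-2, and the mean of its probes was -0.69.

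Normalized Lin28a signal was higher in GC-2. Its 3′ probe, A_55_P2074371 at chr4:133559245-133559304 (minus strand), gave 69.4 and 60.7 in GC-1 and 92.1 and 72.0 in GC-2. Both GC-2 arrays were higher even before normalization, and normalized the values were -3.26 and -3.51 in GC-1 and -2.17 and -1.47 in GC-2. Lin28a rose by 1.56 ± 0.32 log2 (limma, adjusted p = 0.012), with a 95% interval from 0.77 to 2.36. The call was lost without GC-1 replicate 1 or 2 (adjusted p = 0.0559 and 0.0719). The second probe, A_55_P2842616, lies 1690 bases upstream and gave 1.99 and 2.29 in GC-1 and 1.77 and 2.87 in GC-2, above background on no array, so that 1 probe carries the Lin28a result.

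Lin28b was at the limit of detection. Of its 4 probes only A_55_P1970905, the most 3′ one at chr10:45096468-45096527 (minus strand), was well above background, and only in GC-1. It gave 11.4 and 14.6 in GC-1 and 1.73 and 1.54 in GC-2. The GC-1 signal of 14.6 lay under the brightest negative control spot of its array (15.0). As measured the difference was -1.75 ± 0.36 log2 (limma, adjusted p = 0.0127). No fold can be given, because the mean of the GC-1 values of -5.87 and -5.57 lay below the lowest value well above background on either GC-2 array. The direction turned under normexp background correction (0.77, adjusted p = 0.101), and the call was lost without GC-1 replicate 1 or 2 (adjusted p = 0.0597 and 0.0786).

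The other Lin28b probes were above background on no array. A_55_P2781208 gave 10.1 and 11.8 in GC-1 and 8.38 and 4.06 in GC-2, positive and significant on all 4 arrays but not well above background. A_52_P532355 gave 1.67 to 2.65 over the 4 arrays, and A_52_P321857, the probe with AATAAA, gave 1.55 to 2.29.

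Counted together, 4 of the 10 tested probes passed, 3 of them higher and 1 lower in GC-2, while 45.7% of all 36692 tested probes passed, 24.1% as higher and 21.6% as lower. Of the 4, the far Pum2 probe and the Lin28b probe could be tested only through the line in which they were higher, which leaves Lin28a and the middle Pum2 probe as calls between measured levels. The arrays of the lines did not overlap at 8 of the 10 tested probes, against 76.9% of all. By their brightest tested probe, 2 of 7 tested genes passed (Lin28a and Lin28b), against 44.1% of all 17437 genes (18.3% higher, 25.7% lower), and Lin28b was measured in GC-1 alone. Over the 7 genes the median difference was 0.50 log2, against -0.13 for all genes. Both shares lie near or below the background. Without GC-1 replicate 1 the counts were 1 probe and 0 genes, and without GC-1 replicate 2 they were 2 probes and 0 genes.

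**Figure D3:**
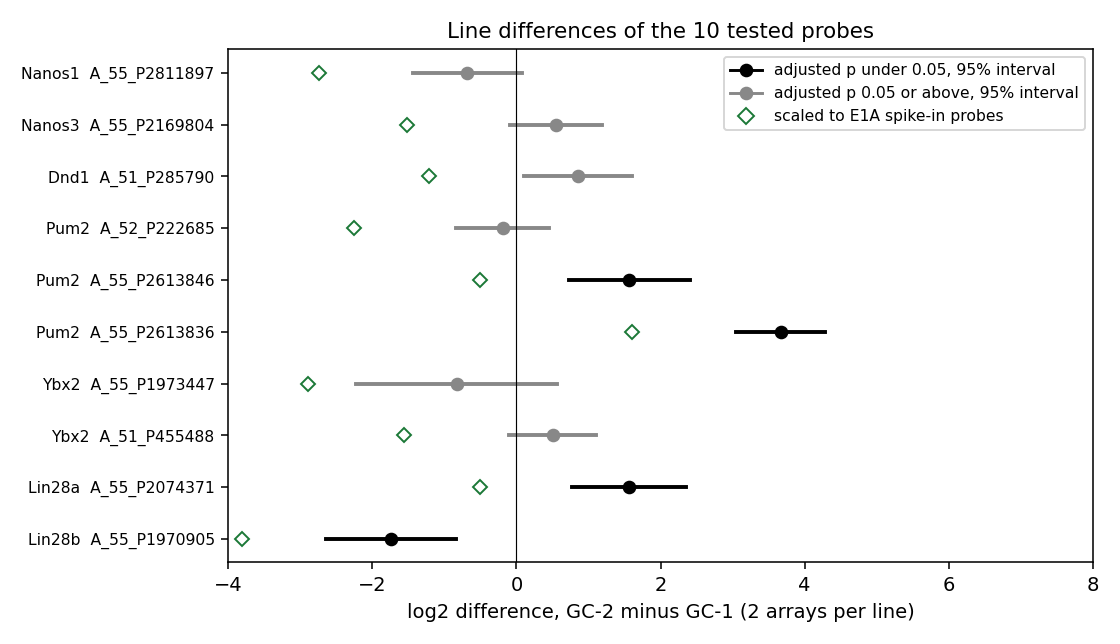
Log2 difference of GC-2 minus GC-1 (x axis, n = 2 arrays per line) for the 10 tested member probes, with the 95% interval of limma before adjustment for multiple testing (black, adjusted p under 0.05; grey, not). Open diamonds give the same difference scaled to the E1A spike-in probes. There Pum2 A_55_P2613836, not well above background in GC-1, alone lies above 0, at 1.60.

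All these differences are relative to the 75th percentile of each array. The E1A spike-in probes, of which 8 of 10 were well above background on all arrays, were 2.07 log2 higher in GC-2 on this scale (SD 0.46 over 8 probes). Scaled to them, Lin28a stood at -0.50 (limma, adjusted p = 0.198) and the middle Pum2 probe at -0.50 (adjusted p = 0.202). Nanos3, Dnd1 and Ybx2 A_51_P455488 became falls of -1.52, -1.22 and -1.57 log2, and the end probe of Pum2 and Nanos1 fell as well. The far Pum2 probe stood at 1.60. It was tested only through GC-2, so this value too is set against a line without a measured level.

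Among the 14971 other genes detected on all 4 arrays, those whose mean-centred values lay nearest to Lin28a were Cd8b1, Sit1 and Cd300a, at Euclidean distances of 0.073, 0.0915 and 0.123 log2 over 4 arrays. With 4 values a gene, such neighbours are a description only.

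Genes that work with these proteins or under them were taken as 5 lists, to be read against the 44.1% of all genes that passed (18.3% higher, 25.7% lower). Of 32 tested genes of translational repression 4 rose and 11 fell, 46.9% in all (median -0.37). Btg2, Tob1 and Btg3, of the antiproliferative BTG/TOB family, fell, with differences of -2.97 ± 0.26, -1.64 ± 0.32 and -1.53 ± 0.25 log2 (limma, adjusted p = 0.000868, 0.0107 and 0.00622). Btg1, Btg4 and Tob2 of that family did not pass, at -0.26, 0.50 and -0.054 (limma, adjusted p = 0.406, 0.187 and 0.957). Tob1 was not called without GC-1 replicate 2 (adjusted p = 0.0558). Cnot1, the scaffold of CCR4-NOT, fell by 1.54 ± 0.24 at its brightest probe, but the mean of its probes was 0.19. Only 1 of the 2 Btg2 probes was called, and the mean of both was -1.73. The 4 that rose at their brightest probe were Ddx6, Lsm14b, Cnot10 and Cnot9, by 0.92 to 1.38, and each was lost without at least 1 array and lay below 0 on the spike-in scale. The 2 Lsm14b probes went opposite ways, with a mean of -0.27.

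Of 28 tested poly(A) and cap factors, the machinery through which DAZL and BOLL act, 6 rose and 3 fell, 32.1% against the 44.1% of all genes (median -0.01). Cpeb1, which controls cytoplasmic polyadenylation in oocytes and germ cells, gave 38.0 and 14.0 in GC-1 and 297 and 146 in GC-2. It rose by 4.41 ± 0.50 log2 at the 1 of its 2 probes that was tested (limma, adjusted p = 0.002). The GC-1 signal of 14.0 lay under the brightest negative control spot of its array (15.0), so the size of the rise is uncertain. Its relative Cpeb2 went the other way, at -3.60 ± 0.62 (limma, adjusted p = 0.00697), a call lost without either GC-1 array. Cpeb3 and Cpeb4 did not pass, at 0.14 and 0.084 (limma, adjusted p = 0.764 and 0.808). The poly(A)-binding protein partner Paip1 rose by 1.96 ± 0.24 (limma, adjusted p = 0.0025), which is -0.11 on the spike-in scale. The initiation factor genes Eif4g3 and Eif4b stood at 3.24 ± 0.32 and -1.91 ± 0.26 (limma, adjusted p = 0.00134 and 0.00326), though the authors' deposited table gave -0.52 for Eif4g3 and the mean of probes -0.63 for Eif4b.

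LIN28 proteins hold back the let-7 microRNAs, whose seed (bases 2 to 8, in capitals) defines their targets; RefSeq gives let-7a on GRCm38.p6 as follows.
mmu-let-7a-5p: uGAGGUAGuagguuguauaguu

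Mature microRNAs were not analysed here. Of 23 tested genes of let-7 processing 7 rose and 7 fell, 60.9% against 44.1% (median -0.09), but for 6 of these 14 the mean of the gene's probes had the opposite sign. Ago1, an Argonaute gene, rose by 2.62 ± 0.29 (limma, adjusted p = 0.00184). The other Argonaute genes were divided. Ago4 rose by 1.22, while Ago2 and Ago3 stood at -0.92 and -1.05 at their brightest probes (limma, adjusted p = 0.00914, 0.0275 and 0.0143). The means of the Ago2 and Ago3 probes were 0.42 and 0.39. Tut4, the uridylyl transferase that LIN28A recruits, rose by 2.38 ± 0.41 log2 (limma, adjusted p = 0.00691), and Tut7 and the exonuclease gene Dis3l2 stood at -0.59 ± 0.26 and 0.58 ± 0.24 (adjusted p = 0.122 and 0.0994). The means of probes were 1.78 for Ago1, 1.46 for Tut4, 0.34 for Tut7 and 1.21 for Dis3l2. Of 3 tested Tut7 probes 1 was called higher, as was 1 of 2 tested Dis3l2 probes. Of 31 tested let-7 targets 10 rose and 8 fell, 58.1% against 44.1% (median 0.16). The RNA-binding protein genes Igf2bp1 and Igf2bp3 went opposite ways, by -3.02 ± 0.30 and 1.45 ± 0.24 (limma, adjusted p = 0.00136 and 0.00645). Plagl1 and Dusp9 rose by 3.59 ± 0.29 and 2.54 ± 0.27, and the cell cycle kinase gene Cdk6 fell by 2.48 ± 0.32 (limma, adjusted p = 0.00076, 0.00167 and 0.00291). Of 3 tested Plagl1 probes 1 was called, and their mean was 1.22. The mean of the Cdk6 probes was -1.50, and the authors' deposited table gave 0.036. Hmga2 stood at 0.78 ± 0.50 (limma, adjusted p = 0.249). Mycn, named after its values were seen, gave 489 and 578 in GC-1 and 1.82 and 1.58, not well above background, in GC-2. It was testable only through GC-1. There it was at least 27.6-fold higher (limma, adjusted p = 0.000205), set against a line without a measured level.

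Of 36 other tested RNA-binding protein genes of germ cells 6 rose and 11 fell, 47.2% against 44.1% (median -0.31), and for 4 of these 17 the mean of probes had the opposite sign. Ddx25, a helicase gene of haploid male germ cells, gave 7211 and 7704 in GC-1 and 354 and 249 in GC-2 and fell by 3.41 ± 0.28 log2 (limma, adjusted p = 0.000749). Elavl2 and Bicc1 fell (-2.31 ± 0.26 and -2.21 ± 0.24), and Fmr1, the fragile X gene, rose by 1.78 ± 0.37 (limma, adjusted p = 0.00198, 0.00168 and 0.0134), which was lost without GC-2 replicate 2 (adjusted p = 0.0544). The authors' deposited table gave -0.92 for Elavl2. Ddx4, the germ cell helicase gene, gave 12.9 and 12.7 in GC-1 and 16.4 and 1.56 in GC-2, where only 1 array had it well above background. Its difference of -0.10 ± 0.74 (limma, adjusted p = 0.923) thus rests on values near the limit of detection. Rbm46 is a germ cell gene needed for meiosis and was named after its values were seen. Its brighter probe gave 6.19 and 2.37 in GC-1, not well above background, and 1126 and 453 in GC-2. At this probe, testable only through GC-2, that line was higher by at least 165-fold (limma, adjusted p = 0.00028), while the mean of both probes gave a smaller difference of 6.45 log2. On the spike-in scale Tut4, Cpeb1 and Rbm46 stood above 0 (0.31, 2.34 and 6.71 log2) and Igf2bp3 below it (-0.61).

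**Figure D4:**
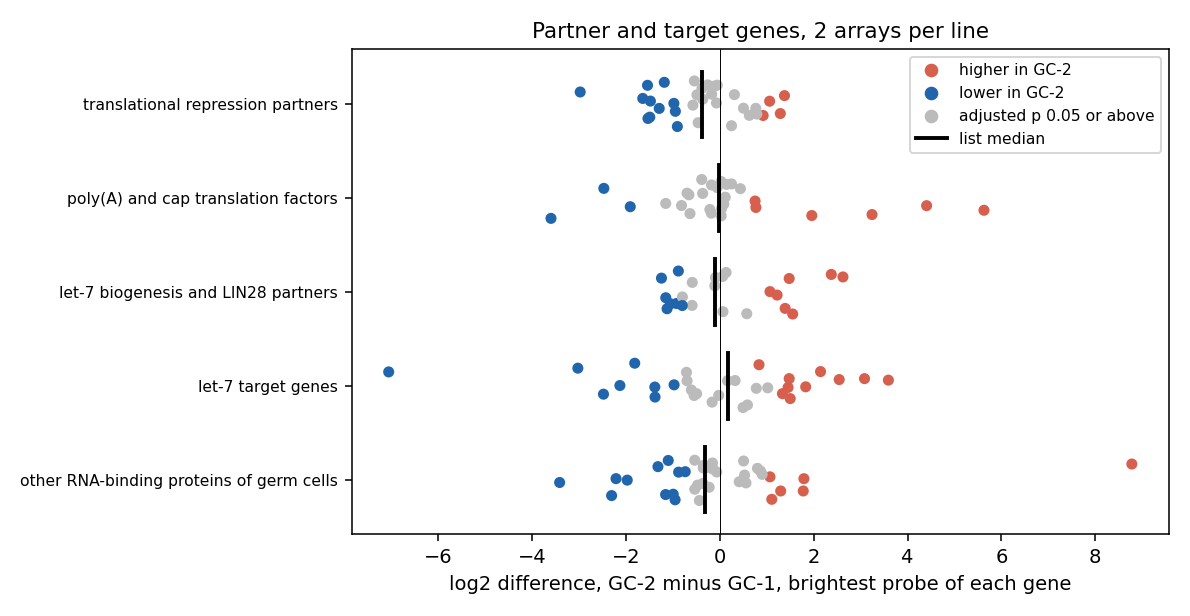
Log2 difference of GC-2 minus GC-1 (x axis, brightest tested probe of each gene, n = 2 arrays per line) for the tested genes of 5 lists, with the list median as a black line. Red genes passed the test as higher and blue genes as lower (adjusted p under 0.05). The medians lie between -0.37 and 0.16 while single genes reach 8.78 (Rbm46).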

How the data were processed

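Per the file headers, the authors quantified the arrays with Agilent Feature Extraction 11.5.1.1. The deposited processed intensity is Cy3 brightness after background subtraction, not yet normalized between arrays, and the deposited flags mark spots by detection and shape. The authors' deposited table holds log2 values with 1 row per gene name, and how it was scaled is not stated in the sources used.

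Irregular spots (92 to 224 an array) were left out and none was saturated. Log2 intensity was averaged over a probe's spots and scaled to the 75th percentile of its array. The fit used limma 3.58.1 (R 4.3.3; two-sided, Benjamini-Hochberg over 36692 probes, threshold 0.05), tested on simulated data; a gene took its brightest tested probe. Gene names came from accessions (32994 of 56605 probes), symbols (10224) or synonyms (520).

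The members and lists were chosen with earlier results of these data known. Btg1, Btg4, Tob2, Ago2, Ago4, Cpeb2, Cpeb3 and Cpeb4 were named outside the naming rule, beside relatives that it took. The naming rule took all members, up to 4 genes per list and direction with the largest change among those detected on all 4 arrays (some of these are left unnamed here), Nanos2, Ybx1, Ybx3, Trim71, Hmga2, Igf2bp1, Igf2bp3, Tut4, Tut7, Dis3l2 and Ddx4, and the 3 nearest neighbours of Lin28a; 1 further gene of the rule is not reported here. The alternatives were normexp background, median, quantile, spike-in and detected-probe scaling, other filters, probe means, the authors' table, a replicate block and leaving out each array.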

Additional observations from a re-analysis of the deposited data

How the results depend on the processing

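Scaled to the E1A spike-in probes, 31587 probes passed (1680 higher and 29907 lower in GC-2), as did 15800 genes, 8 member probes, 6 member genes and 131 list genes, against 16780 (8845 and 7935), 7682, 4, 2 and 72. Dnd1, Lin28a, Nanos3, Pum2 A_55_P2613846 and Ybx2 A_51_P455488 then turned to -1.22, -0.50, -1.52, -0.50 and -1.57 log2. With normexp background 5037 probes were lower and Lin28b turned to 0.77, and without a filter 1 member gene passed. Pum2 A_52_P222685 was 0.053 with quantile normalization and 0.0078 with the percentile over detected probes. The mean of probes gave 1.68 for Pum2 and -0.16 for Ybx2, and the authors' table -0.21 for Ybx2. The causes were not tested.

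With 1 array left out, 10683 to 13569 probes passed (5755 to 7401 higher, 4928 to 6168 lower), 4634 to 5981 genes, 1 to 4 member probes, 0 to 2 member genes and 41 to 52 list genes. The lowest counts of probes, genes, member probes and list genes came without GC-1 replicate 1. Pum2 A_52_P222685 ran from -0.40 to 0.016.

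Same-numbered replicates deviated together with a correlation of 0.15 over 30314 probes, but 2 pairs and no stated shared culture do not pair the samples. With the replicate number as a block 17332 probes, 7797 genes, 5 member probes, 3 member genes and 71 list genes passed. Dnd1 then passed (limma, adjusted p = 0.0415), as did the Ybx2 pair (adjusted p = 0.0237).

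With 2 arrays per line the precision is limited by their number, and Dazl, Boll and most Lin28b probes are known only as below the limit of detection.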
